A study of Mus musculus with 18 samples.

Results

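Endothelial-to-mesenchymal transition is the process in which endothelial cells take on features of mesenchymal cells. The 10 genes described here are markers and regulators of that transition, chosen by name from the 57010 genes counted: the calcium-binding proteins S100a4 and S100a6, the structural and surface markers Vim, Postn, Cdh2 and Cd44, the ligands Tgfb1 and Tgfb2, and the transcription factors Snai1 and Snai2. Of the 10 genes, 9 had enough counts to be tested, and S100a4 did not.

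The 18 RNA-seq libraries came from isolated brain endothelial cells of mice at postnatal day 57. Hypoxia KO (5 libraries) and normoxia KO (5 libraries) were Slco1c1-iCreERT2; Pdcd10fl/fl; Aldh1l1-EGFP/Rpl10a mice, in which 4-hydroxytamoxifen (50 µg at postnatal day 1) activates a brain endothelial Cre recombinase that deletes Pdcd10, the gene of cerebral cavernous malformation protein CCM3. Hypoxia flox (4 libraries) and normoxia flox (4 libraries) were Pdcd10fl/fl; Aldh1l1-EGFP/Rpl10a littermates without the driver, so floxed Pdcd10 alleles and the Aldh1l1 astrocyte transgene were common to all groups. The same 4-hydroxytamoxifen dose, 50 µg at postnatal day 1, is given for all 18 libraries, flox included. The hypoxia groups had spent 7 days in 12% oxygen, and the normoxia groups were kept in 21% oxygen. The design text also mentions driver animals that were not injected as controls, without saying which libraries, if any, came from them. It was not stated whether each library was a separate animal, so p-values measure the spread between these libraries, which may be partly technical.

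In this transition, TGF-beta ligands bind serine/threonine kinase receptors, and phosphorylated SMAD proteins carry the signal to the nucleus. Transcription factors of the Snail family then repress junction genes such as the endothelial cadherin Cdh5, while cytoskeletal and matrix genes are raised. In the brain, loss of CCM proteins in endothelium is known to raise KLF transcription factors and to be followed by mesenchymal features in the cells that line the malformations.

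Total counts ran from 17.9 M to 31.2 M per library, and levels below are CPM, counts divided by the library total in M after TMM scaling, a correction for library composition. The deleted gene, Pdcd10, averaged 21.3 ± 2.77 CPM in hypoxia KO and 48.0 ± 9.79 CPM in hypoxia flox, and 18.6 ± 1.90 CPM in normoxia KO against 39.3 ± 6.14 CPM in normoxia flox (SD, n = 5, 4, 5 and 4), with no overlap between genotypes. All 7 endothelial markers examined, among them Pecam1, Cldn5 and Cdh5, had counts in every library. Their summed level was between 12660 and 14203 CPM in hypoxia KO and between 14334 and 16292 CPM in hypoxia flox, without overlap. In normoxia KO it was between 11956.5 and 13784 CPM. Normoxia flox 4 had 11079 CPM, and normoxia flox 1 to 3 had 15897 to 16738 CPM. A few libraries stood apart. Normoxia KO 4 and normoxia flox 4 held the neuronal gene Syt1 at 471 and 838 CPM, against 0 to 8.68 CPM in all others. They are called the neuronal libraries below, but other brain cells stood high in them too. Their astrocyte markers summed to 524 and 924 CPM, against 81.8 to 242 CPM elsewhere. Their microglia markers summed to 116 and 180 CPM, against 20.3 to 65.6 CPM elsewhere. Hypoxia KO 4 held the neutrophil genes S100a8 and S100a9 at 29.2 and 49.4 CPM, and no other library passed 1.02 and 2.59 CPM. Xist and the Y-linked gene Ddx3y did not divide evenly over the groups: over 5 CPM, 4 of 5 hypoxia KO libraries had Xist alone and 1, hypoxia KO 4, Ddx3y alone, as did all 4 hypoxia flox libraries. Both genes were present in normoxia KO 4 and in the normoxia flox libraries numbered 3 and 4. With a sex signal, the mean of several Y-linked genes minus Xist, as a covariate, 5 members passed in each genotype comparison, as without it. In hypoxia, sex signal and genotype nearly coincide, so this fit cannot tell them apart there. Summed markers of other cells are given beside several of the transition genes. In such bulk libraries, fewer cells of a type and less RNA per cell cannot be told apart.

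The promoter sequences of 4 of the genes introduce the results, because these genes carry the main contrasts: S100a4 and S100a6 lie in 1 gene cluster on chromosome 3, the one nearly without counts and the other detected in every library, Tgfb2 was the only member that fell, and Snai1 varied with a library-wide response. Each sequence is the 250 bases before the annotated start, read 5′ to 3′ on the strand of the gene, from RefSeq on GRCm38.p6. Promoters were at hand for 8 of the 10 genes, all but Snai2 and Cdh2. Capitals mark matches on either strand to the letters CAGGTG (an E-box bound by Snail factors), TGANTCA (AP-1), CACCC (KLF), GGAATG (TEAD), ACGTG (hypoxia-inducible factor) and CAGAC (SMAD), whose reverse complements are searched as well.
S100a4, chr3:90603520-90603769, plus strand: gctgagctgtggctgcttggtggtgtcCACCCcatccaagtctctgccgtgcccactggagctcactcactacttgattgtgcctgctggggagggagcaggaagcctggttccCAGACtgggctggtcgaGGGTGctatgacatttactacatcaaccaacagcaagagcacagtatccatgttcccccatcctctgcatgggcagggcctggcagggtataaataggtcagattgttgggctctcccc
S100a6, chr3:90612644-90612893, plus strand: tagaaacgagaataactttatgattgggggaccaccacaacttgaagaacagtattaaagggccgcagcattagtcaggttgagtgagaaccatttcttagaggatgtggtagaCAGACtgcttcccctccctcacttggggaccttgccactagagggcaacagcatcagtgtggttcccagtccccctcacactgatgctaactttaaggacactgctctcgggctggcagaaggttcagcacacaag
Tgfb2, chr1:186705990-186706239, minus strand: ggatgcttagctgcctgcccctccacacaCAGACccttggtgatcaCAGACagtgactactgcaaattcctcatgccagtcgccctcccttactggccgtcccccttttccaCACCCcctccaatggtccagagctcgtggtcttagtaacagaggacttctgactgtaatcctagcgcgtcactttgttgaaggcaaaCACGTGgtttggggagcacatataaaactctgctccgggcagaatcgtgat
Snai1, chr2:167537945-167538194, plus strand: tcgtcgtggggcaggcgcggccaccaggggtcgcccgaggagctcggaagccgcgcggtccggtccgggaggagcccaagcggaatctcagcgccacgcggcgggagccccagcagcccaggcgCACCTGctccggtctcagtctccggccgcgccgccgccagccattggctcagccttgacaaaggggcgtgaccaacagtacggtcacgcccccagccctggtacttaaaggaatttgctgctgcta
The S100a6 window held 1 CAGAC and no other match, and the S100a4 window held 2 CACCC and 1 CAGAC. In the Tgfb2 window there were 2 CAGAC, 1 CACCC and a CACGTG, which reads as ACGTG on both strands, so its 2 matches overlap. The Snai1 window held 1 CAGGTG, written CACCTG on its plus strand, and no TGANTCA. Of 32851 RefSeq windows of the same length, CAGGTG was found in 17.2%, TGANTCA in 6.75%, CACCC in 52%, GGAATG in 12.6%, ACGTG in 16.6% and CAGAC in 42.2%. A match is a description of letters and not a bound site.

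In both oxygen conditions the genotype comparison showed higher S100a6, Postn and Tgfb1 and lower Tgfb2 in KO cells. Vim rose with them in normoxia, and Cd44 in hypoxia. Cdh2, Snai1 and Snai2 passed in neither comparison. The tests are edgeR quasi-likelihood tests over the 17531 genes with enough counts, with Benjamini-Hochberg adjustment and a threshold of 0.05, and changes are log2 fold changes ± SE. In hypoxia, KO minus flox, 5 of the 9 tested members passed, 4 higher and 1 lower, where 22.3% of all tested genes passed, 11.4% higher and 11% lower. In normoxia 5 of 9 passed as well, again 4 higher and 1 lower, where 16.6% of all tested genes passed, 9.54% higher and 7.03% lower. The genotype counts of other gene lists given below are to be read beside these same shares. The median change of the 9 members was 0.50 in hypoxia and 0.66 in normoxia, and that of all tested genes was -0.00 and -0.02. Libraries of the 2 genotypes did not overlap for 5 of the 9 members in either oxygen condition, where this held for 22.3% of all tested genes in hypoxia and 14.7% in normoxia.

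**Figure D1:**
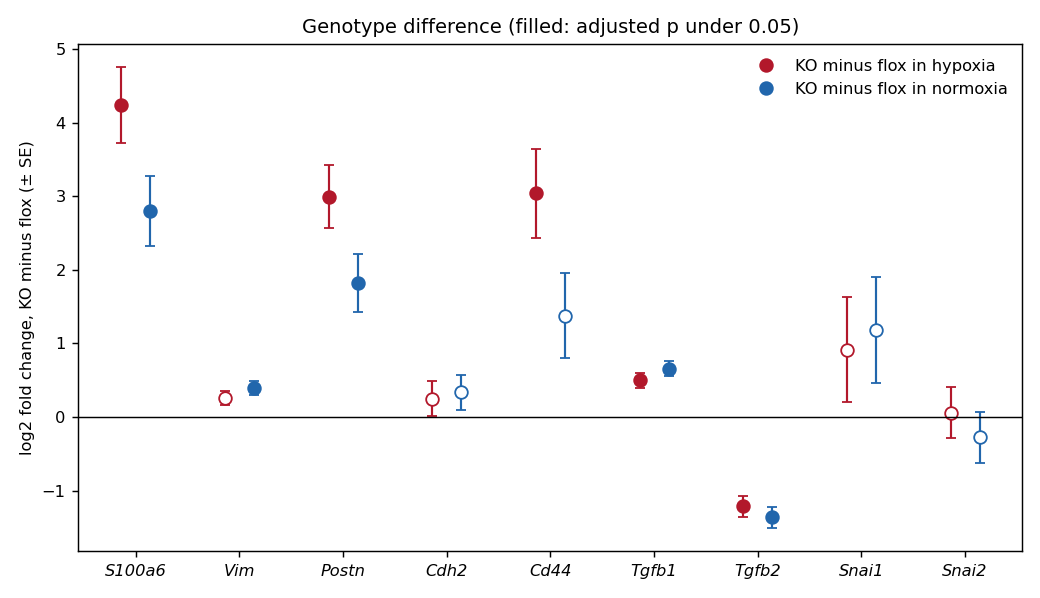
Log2 fold change of KO minus flox (vertical axis, ± SE) for the 9 tested genes, in hypoxia (red) and in normoxia (blue); filled points passed an adjusted p of 0.05. S100a6 had the highest values, 4.24 in hypoxia and 2.80 in normoxia, and Tgfb2 was the only gene whose filled points lie below 0.

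Levels between genes were compared on the authors' RPKM scale, which divides by gene length. Vim stood highest in every group, with a mean of 270 RPKM in hypoxia KO, 252 in hypoxia flox, 242 in normoxia KO and 194 in normoxia flox. The order below it differed between the genotypes. In hypoxia KO, the means of S100a6 (34.0 ± 28.4 RPKM, SD, n = 5) and Tgfb1 (32.7 ± 2.54 RPKM) came next. The S100a6 mean rested on hypoxia KO 4, at 84.7 RPKM. In the other hypoxia KO libraries S100a6 had 19.7 to 23.4 RPKM, below every Tgfb1 value (30.5 to 35.5 RPKM). Cdh2 (12.3), Tgfb2 (8.22), Snai1 (6.74) and Snai2 (5.96 RPKM) followed. In hypoxia flox the order was Tgfb1 (25.7 RPKM), Tgfb2 (21.2), Cdh2 (11.5), Snai2 (6.33), Snai1 (3.93) and S100a6 (2.05 RPKM). In normoxia KO it was Tgfb1 (27.8 RPKM), S100a6 (17.4), Cdh2 (9.92), Tgfb2 (9.14), Snai1 (8.46) and Snai2 (5.16 RPKM), where Cdh2, Tgfb2 and Snai1 lay within their spread. In normoxia flox Tgfb2 (25.0 RPKM) came before Tgfb1 (18.7), Cdh2 (8.30), Snai2 (6.60), Snai1 (3.98) and S100a6 (2.63 RPKM). By group means, S100a6 thus ranked above Tgfb2 and both Snail factors in KO groups and below them in flox groups. Against Snai1 the flox libraries overlapped. S100a6 had 1.5 to 3.2 RPKM and Snai1 0.7 to 7.8 RPKM in hypoxia flox, and in normoxia flox 1.6 to 4.4 and 1.2 to 7.2 RPKM. Snai1 and Snai2 overlapped in every group. Cd44 and Postn averaged at most 1.34 RPKM in any group, and S100a4 was lowest, at 0.0167 RPKM over the 18 libraries.

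S100a6 encodes a small calcium-binding protein that is abundant in fibroblasts and smooth muscle. It had 28.3, 34.2, 28.6, 127 and 29.4 CPM in hypoxia KO libraries 1 to 5, against 2.51, 2.05, 1.93 and 3.97 CPM in hypoxia flox 2 to 5. In normoxia it had 23.8, 23.6, 27.6, 24.9 and 22.5 CPM in KO libraries 1, 2, 4, 5 and 6, against 2.51, 2.02, 3.43 and 5.99 CPM in flox 1 to 4. Every KO library was above every flox library, and apart from hypoxia KO 4 the KO libraries of each oxygen condition lay close together. The change was 4.24 ± 0.51 in hypoxia (adjusted p = 4.3e-05, edgeR quasi-likelihood) and 2.80 ± 0.48 in normoxia (adjusted p = 7.2e-04), or 18.9-fold and 6.96-fold. Without hypoxia KO 4, the library with neutrophil genes, the hypoxia KO mean was 30.1 ± 2.76 CPM (SD, n = 4), and the change was 3.52 ± 0.28 (adjusted p = 2e-06). Markers of smooth muscle moved the opposite way: the summed level of 8 markers, all detected in every library, was between 134 and 274 CPM in hypoxia KO, between 329 and 632 CPM in hypoxia flox, between 156 and 185 CPM in normoxia KO and between 507 and 967 CPM in normoxia flox. That sum does not overlap between the genotypes, so genotype and smooth muscle signal cannot be told apart in these libraries. With the mean of these markers as a covariate, an alternative chosen after seeing the data, the S100a6 change was 2.09 ± 0.59 in hypoxia (adjusted p = 0.109) and 0.11 ± 0.71 in normoxia (adjusted p = 0.972), and Tgfb1 was the single member that passed in either condition.

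S100a4, also called fibroblast-specific protein, is the member of the S100 family most used as a mesenchymal marker, and it was nearly absent from the counts. Over all 10 KO libraries it had 4 counts, 1 in hypoxia KO 4 and 3 in 2 normoxia KO libraries. Over all 8 flox libraries it had 0 counts, which allows up to 0.018 CPM (3 counts over the group, counting error only). No difference could be tested at this depth. S100a4 is also abundant in leukocytes, yet hypoxia KO 4, with its neutrophil genes, had a single count. How reads in overlapping annotated genes were counted is not given in the sources used here, so such counts do not show that the RNA was absent.

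The neighbours of these genes in the S100 cluster followed the same division into detected and near-absent genes. Along the chromosome, S100a3, S100a2 and S100a4 each had 0 to 3 counts per group. S100a7a, the next gene after S100a6, had 2 to 9 counts per group, so near-absent genes lay on both sides of S100a6. S100a5, between S100a4 and S100a6, averaged 0.084 CPM in hypoxia KO, 0.0228 CPM in hypoxia flox, 0.521 CPM in normoxia KO and 0.150 CPM in normoxia flox. From the list of other S100 genes and annexin A2, 9 of 11 had enough counts to be tested. In hypoxia 7 of the 9 were higher in KO and none lower, and in normoxia 5 were higher and none lower. S100a10, which forms a complex with annexin A2 at the plasma membrane, averaged 79.0 CPM in hypoxia KO and 19.1 CPM in hypoxia flox (change 2.05 ± 0.23, adjusted p = 2.0e-05, edgeR), and 91.0 CPM in normoxia KO against 22.3 CPM in normoxia flox (2.03 ± 0.23, adjusted p = 1.6e-05). Its partner Anxa2 rose by 1.26 ± 0.11 in hypoxia (adjusted p = 2.5e-06) and 1.65 ± 0.11 in normoxia (adjusted p = 1.1e-07). S100a13 rose by less, 0.51 ± 0.06 in hypoxia (adjusted p = 1.3e-05) and 0.50 ± 0.06 in normoxia (adjusted p = 1.2e-05).

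**Figure D2:**
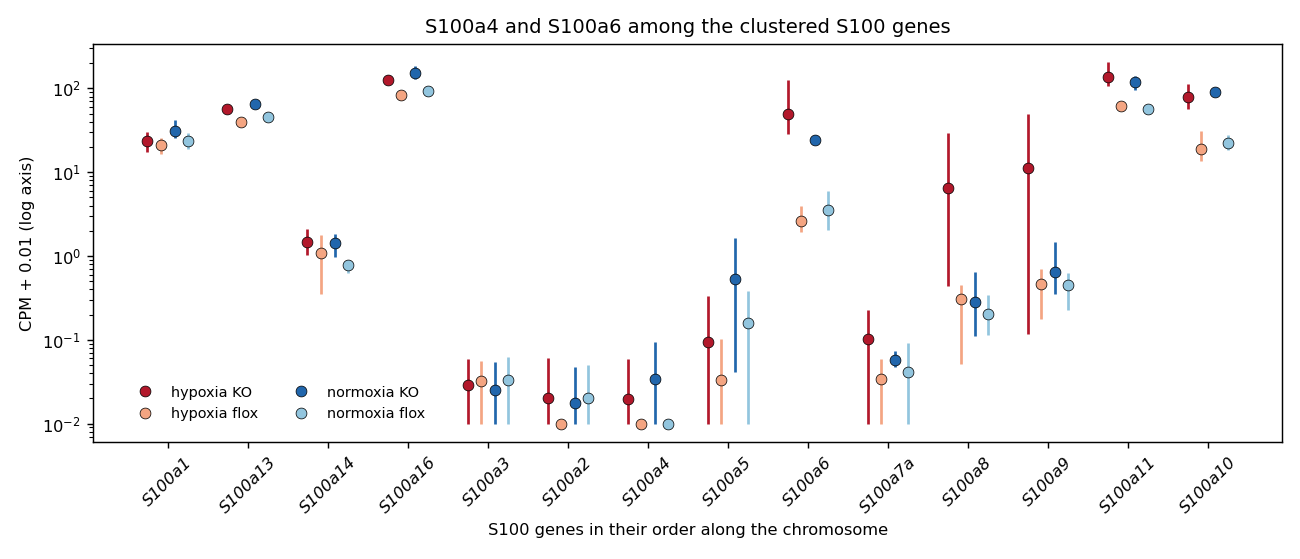
Mean level of each clustered S100 gene by group, as CPM with 0.01 added on a log axis; lines run from the lowest to the highest library. S100a4 sits at the bottom, separated by S100a5 from S100a6, whose KO points (means of 49.5 and 24.5 CPM) lie above its flox points (2.62 and 3.49 CPM).

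Vim encodes vimentin, the intermediate filament of mesenchymal cells, which endothelial cells also make. Its level was high in every library: 1188, 1472, 1279, 1509 and 1270 CPM in hypoxia KO, 1207, 1088, 1125 and 1075 CPM in hypoxia flox. The normoxia KO libraries had 1171, 1083, 1212, 1185 and 1266 CPM, against 1022, 847, 966 and 766 CPM in normoxia flox. All normoxia KO libraries exceeded all normoxia flox libraries, whereas hypoxia KO 1 fell below hypoxia flox 2. The normoxia change was 0.39 ± 0.09 (adjusted p = 0.00797, edgeR quasi-likelihood), a 1.31-fold difference. The normoxia call did not hold with the replicate number as a block, neither over all groups (0.38, adjusted p = 0.0722) nor over the same-numbered pairs alone (0.35, adjusted p = 0.217). It did not hold either without normoxia flox 3 and the pair of neuronal libraries, which together make up those with both Xist and Ddx3y (0.29, adjusted p = 0.101). In hypoxia the change was 0.26 ± 0.09, with an interval of 0.07 to 0.44 (2 SE on either side), and missed the threshold (adjusted p = 0.0578); it passed with DESeq2 (adjusted p = 0.0404) and when hypoxia KO 1 was left out (adjusted p = 0.0323). Of 8 partners of vimentin, 3 were higher in hypoxia KO, among them Plec, a linker of filaments to junctions (0.61 ± 0.11, adjusted p = 0.00141), and Nes, the filament protein nestin (0.50 ± 0.13, adjusted p = 0.0114). In normoxia none of the 8 was higher, and Des, the muscle filament desmin, was lower (-1.23 ± 0.26, adjusted p = 0.00381).

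Postn encodes periostin, a matrix protein secreted by fibroblasts and induced by TGF-beta. It was scarce throughout: 5.49, 7.87, 3.37, 5.53 and 8.52 CPM in hypoxia KO, against 1.13, 1.05, 0.495 and 0.343 CPM in hypoxia flox. In normoxia there were 4.23, 3.45, 4.80, 6.25 and 7.71 CPM in KO and 1.77, 0.890, 0.738 and 2.57 CPM in flox. No KO library reached down to a flox library in either condition. Postn rose by 2.99 ± 0.43 in hypoxia (adjusted p = 1.7e-04, edgeR quasi-likelihood) and by 1.82 ± 0.39 in normoxia (adjusted p = 0.00397). With the replicate block the normoxia change missed the threshold, at 1.47 (adjusted p = 0.0543) over all groups and 1.27 (adjusted p = 0.0843) over the pairs alone. The 11 markers of perivascular fibroblasts, of which Dpt was at 0 in 10 libraries, moved with Postn in hypoxia: of 10 tested, 4 were higher in KO and none lower, with a median change of 1.37. They summed to between 102 and 205 CPM in hypoxia KO, against 32.3 to 42.3 CPM in hypoxia flox 2, 4 and 5 and 484 CPM in hypoxia flox 3. In normoxia 2 of 10 were higher and none lower, and the sums lay between 88.7 and 296 CPM in KO, against 61.4 to 112 CPM in flox 2 to 4 and 973 CPM in flox 1. Most of the high flox sums came from the collagen genes Col1a1 and Col1a2 of this list. They had 249 and 211 CPM in hypoxia flox 3, and 509 and 424 CPM in normoxia flox 1. Unlike the sum, the mean log2 CPM of the 11 markers did not overlap in hypoxia, at 1.80 to 2.44 in KO and 0.034 to 1.72 in flox. With this mean as a covariate Postn passed in hypoxia (1.97 ± 0.49, adjusted p = 0.0250, edgeR) and in normoxia (1.36 ± 0.35, adjusted p = 0.0188). In hypoxia that fit cannot tell genotype and fibroblast signal apart. With the mean of 10 pericyte markers as a covariate, chosen after seeing the data, Postn missed in normoxia (1.42, adjusted p = 0.0623). The pericyte markers were all detected in every library and summed to between 1312 and 2271 CPM in hypoxia KO, between 223 and 1125 CPM in hypoxia flox, between 781 and 1421 CPM in normoxia KO and between 406 and 1372 CPM in normoxia flox. The 5 markers of dividing cells summed to between 72.0 and 178 CPM in hypoxia KO, between 148 and 251 CPM in hypoxia flox, between 33.2 and 84.2 CPM in normoxia KO and between 4.95 and 18.02 CPM in normoxia flox. All 5 were higher in normoxia KO and none passed in hypoxia (edgeR), and their part in the Postn level was not tested.

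**Figure D3:**
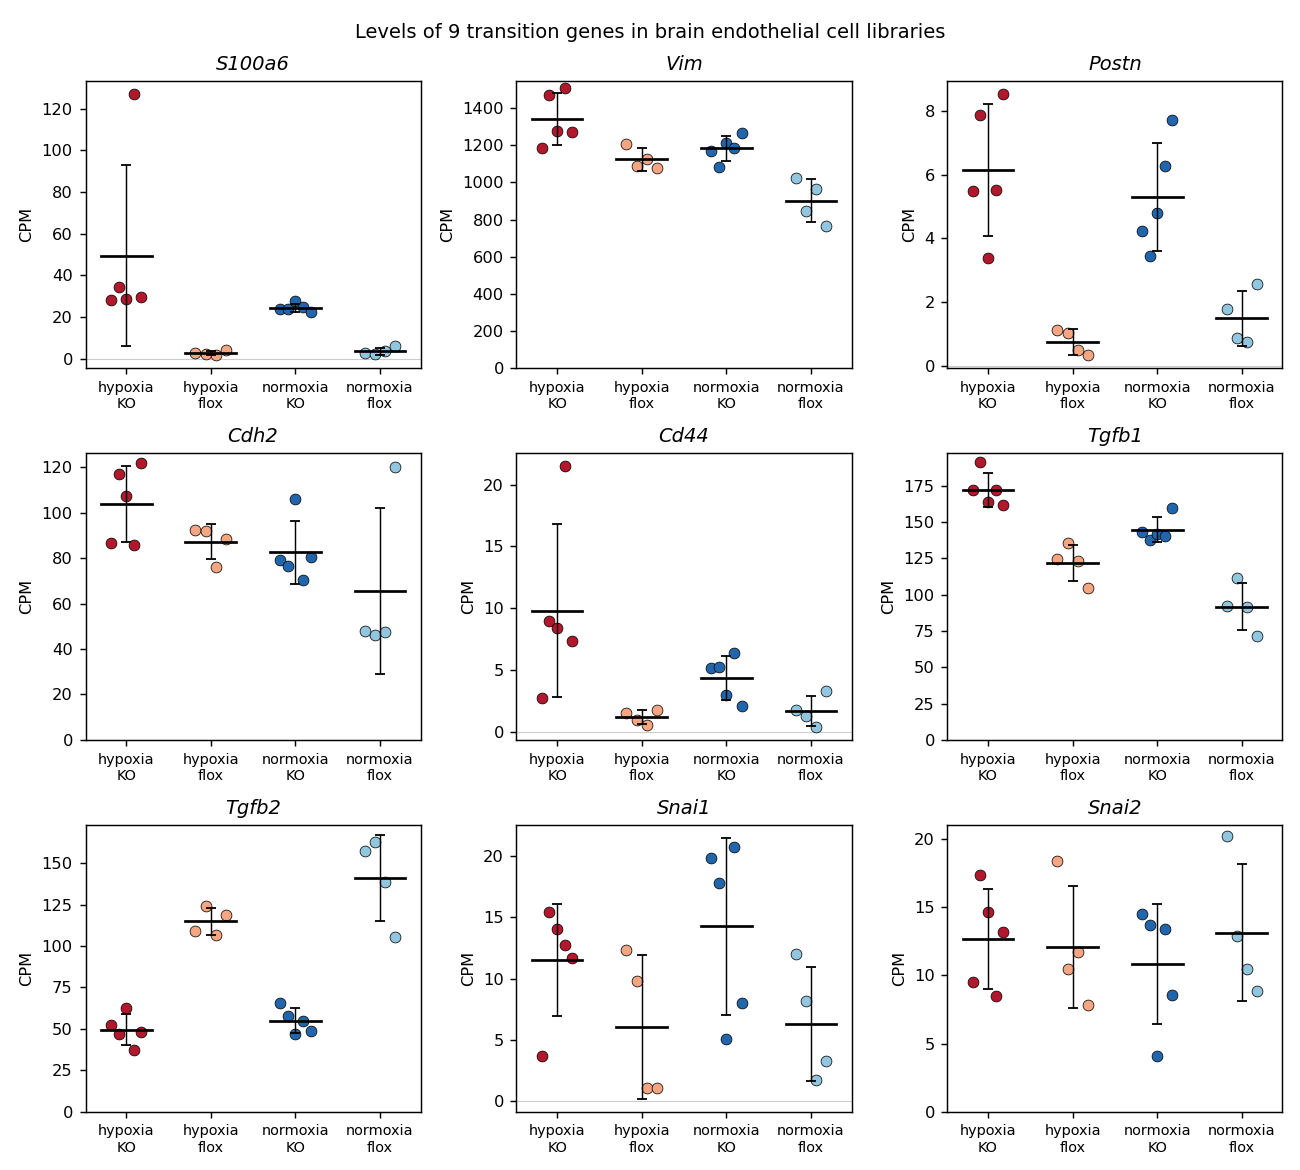
CPM of the 9 tested genes in each library (points) with the group mean (bar) and SD (whisker), for hypoxia KO, hypoxia flox, normoxia KO and normoxia flox from left to right; each vertical axis includes 0. KO and flox libraries separate for S100a6, Postn, Tgfb1 and Tgfb2, while Snai1 and Snai2 spread widely within every group.

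Cdh2 encodes N-cadherin, which endothelial cells use for contacts with mural cells and neurons use at synapses. It had 86.8, 117, 107, 85.9 and 122 CPM in hypoxia KO and 92.2, 92.05, 76.2 and 88.6 CPM in hypoxia flox. In normoxia KO it had 79.1, 76.5, 106, 70.3 and 80.6 CPM, against 47.9, 46.2, 47.3 and 120.1 CPM in normoxia flox. The normoxia flox libraries 1 to 3 were the lowest of all 18, while normoxia KO 4 and normoxia flox 4, the libraries with neuronal RNA, were the highest of their groups. Over all libraries the change missed the threshold in hypoxia (0.25 ± 0.24, interval -0.23 to 0.73, adjusted p = 0.506, edgeR quasi-likelihood) and in normoxia (0.33 ± 0.24, interval -0.15 to 0.82, adjusted p = 0.401). Without the pair of neuronal libraries, Cdh2 averaged 76.6 ± 4.51 CPM in normoxia KO (SD, n = 4) and 47.1 ± 0.834 CPM in normoxia flox (SD, n = 3), and the change passed (0.66 ± 0.12, adjusted p = 8.3e-04). The summed level of 6 neuron markers was 846 CPM in normoxia KO 4 and 1494 CPM in normoxia flox 4, against 20.4 to 100.5 CPM elsewhere. Astrocyte markers were also highest in these libraries (524 and 924 CPM), so RNA of neurons and of other brain cells cannot be told apart there. The hypoxia change also passed in the edgeR fit over same-numbered pairs with a replicate block (0.27, adjusted p = 0.0384). Equal numbers were not taken as pairs in hypoxia, since libraries of the same number did not deviate together there.

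Cdh5, the VE-cadherin of endothelial junctions whose fall accompanies Cdh2 in a full switch of cadherins, averaged 1168 CPM in hypoxia KO and 1192 CPM in hypoxia flox, and 1094 CPM in normoxia KO and 1106 CPM in normoxia flox. Its change was -0.03 ± 0.10 in hypoxia (adjusted p = 0.874, edgeR) and -0.02 ± 0.10 in normoxia (adjusted p = 0.935). Of the 8 other cadherins and catenins, Cdh5 among them, 4 were higher in KO in each oxygen condition and none was lower. Cdh13, a cadherin without a transmembrane part, averaged 343 CPM in hypoxia KO and 45.7 CPM in hypoxia flox (2.90 ± 0.40, adjusted p = 1.2e-04). Cdh1, the E-cadherin of epithelia, averaged 15.1 CPM in normoxia KO and 0.981 CPM in normoxia flox (3.90 ± 0.58, adjusted p = 2.0e-04). Jup, the junction protein plakoglobin, rose by 0.44 ± 0.09 in hypoxia (adjusted p = 0.00322) and 0.50 ± 0.09 in normoxia (adjusted p = 0.00127).

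Cd44 encodes the receptor for hyaluronan, found on mesenchymal cells and on most leukocytes. Its level was low and uneven: 2.75, 8.94, 8.38, 21.5 and 7.35 CPM in hypoxia KO, against 1.51, 0.912, 0.545 and 1.76 CPM in hypoxia flox. Normoxia KO libraries had 5.15, 5.25, 2.97, 6.40 and 2.06 CPM, and normoxia flox libraries 1.72, 1.27, 0.391 and 3.26 CPM. All hypoxia KO libraries were above all hypoxia flox libraries, with KO 4 far above and KO 1 nearest to flox, while in normoxia KO 4 and KO 6 lay below flox 4. The change passed in hypoxia (3.04 ± 0.61, adjusted p = 0.00223, edgeR quasi-likelihood) and also without hypoxia KO 4 (2.53 ± 0.54, adjusted p = 0.00502). In normoxia it was 1.38 ± 0.58, with an interval of 0.22 to 2.53, and missed the threshold (adjusted p = 0.123); it passed without normoxia flox 4 (1.94, adjusted p = 0.0455).

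Leukocyte markers moved with Cd44. The 8 neutrophil and macrophage markers, all detected in every group with Mrc1 at 0 in 1 hypoxia flox library, summed to between 23.6 and 225 CPM in hypoxia KO, between 6.12 and 17.8 CPM in hypoxia flox, between 15.7 and 52.4 CPM in normoxia KO and between 5.12 and 33.7 CPM in normoxia flox. Of 9 tested lymphocyte markers, 7 were higher in hypoxia KO and none lower (edgeR, median change 2.25), and 3 were higher and none lower in normoxia KO (median 1.68). The whole list of 10, of which Cd3e was at 0 in 3 normoxia flox libraries, summed to between 22.8 and 91.0 CPM in hypoxia KO, between 5.04 and 21.6 CPM in hypoxia flox, between 12.2 and 42.6 CPM in normoxia KO and between 5.43 and 18.02 CPM in normoxia flox. Itgb2, the beta subunit of leukocyte integrins, had 2.75, 16.8, 9.66, 31.0 and 9.85 CPM in hypoxia KO and 2.22, 0.775, 0.545 and 0.490 CPM in hypoxia flox, with the same highest and lowest KO libraries as Cd44. With the mean log2 CPM of the 8 neutrophil and macrophage markers as a covariate, the hypoxia change of Cd44 was 0.68 ± 0.54 (adjusted p = 0.634, edgeR). It no longer passed, while S100a6 (2.85 ± 0.52, adjusted p = 0.00543), Postn (2.95 ± 0.60, adjusted p = 0.0109) and Tgfb2 (-1.06 ± 0.23, adjusted p = 0.0156) did. With the pericyte covariate the Cd44 change was 2.72 and did not pass (adjusted p = 0.112). Neither covariate overlaps between the genotypes in hypoxia, so these fits cannot tell genotype and marker signal apart there. Which cells the Cd44 counts came from was not tested. Among 13 tested genes of hyaluronan metabolism and CD44 partners, 5 were higher and 3 lower in hypoxia KO, and 6 were higher and 1 lower in normoxia KO. Ezr, the ezrin that ties CD44 to actin, rose by 1.43 ± 0.16 in hypoxia (adjusted p = 1.2e-05) and 1.22 ± 0.15 in normoxia (adjusted p = 3.8e-05). Srgn, the proteoglycan serglycin that binds CD44, rose by 0.40 ± 0.10 in hypoxia (adjusted p = 0.0107) and 0.72 ± 0.10 in normoxia (adjusted p = 1.3e-04).

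**Figure D4:**
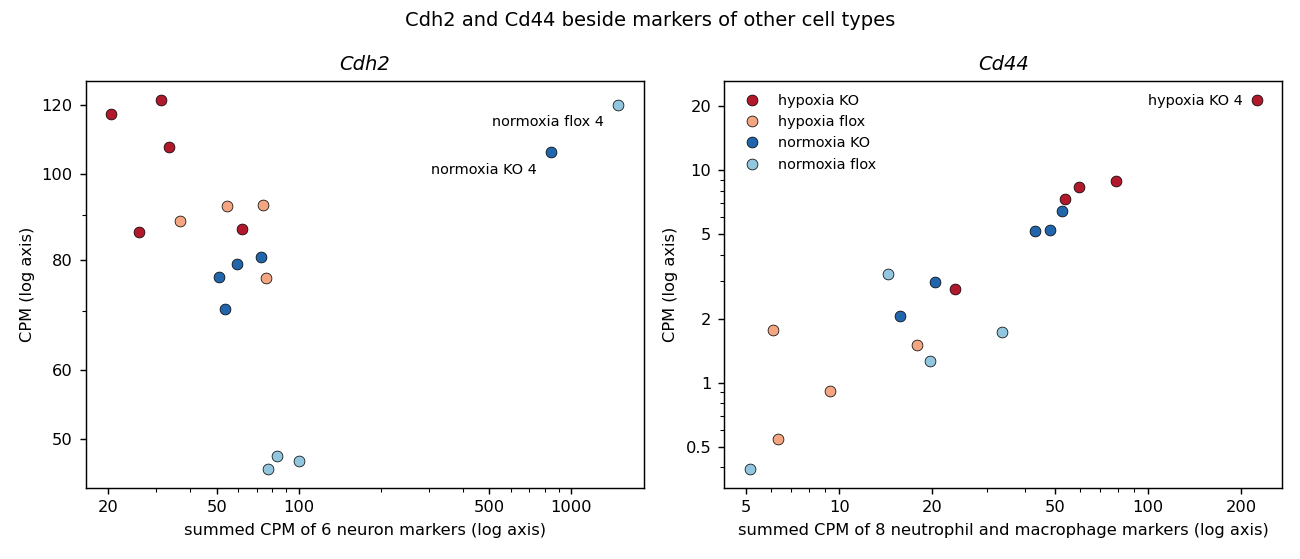
Left, Cdh2 CPM against the summed CPM of 6 neuron markers; right, Cd44 CPM against the summed CPM of 8 neutrophil and macrophage markers; each point is a library and all axes are log. Normoxia KO 4 and normoxia flox 4 stand apart on the neuron axis at 846 and 1494 CPM, and hypoxia KO 4 has both the highest Cd44 (21.5 CPM) and the highest leukocyte sum (225 CPM).

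The ligands moved in opposite directions. Tgfb1, the form most studied as an inducer of the transition, had 172, 192, 164, 172 and 162 CPM in hypoxia KO, against 124, 135, 123 and 105 CPM in hypoxia flox. It had 143, 138, 142, 140.4 and 159.6 CPM in normoxia KO, against 92.3, 111, 91.4 and 71.8 CPM in normoxia flox. The genotypes did not overlap in either condition. Tgfb1 rose by 0.50 ± 0.10 in hypoxia (adjusted p = 0.00299, edgeR quasi-likelihood) and by 0.66 ± 0.10 in normoxia (adjusted p = 3.4e-04), or 1.41-fold and 1.58-fold. Over the 3 same-numbered normoxia pairs alone, with a replicate block, the change was 0.59 and missed the threshold (adjusted p = 0.103). The hypoxia call was also lost with a covariate for neutrophil and macrophage markers (0.49, adjusted p = 0.129) or for fibroblast markers (0.48, adjusted p = 0.0673), and, with the covariate added later, for pericyte markers (0.25, adjusted p = 0.299). None of these covariates overlaps between the genotypes in hypoxia, so these fits cannot tell genotype and marker signal apart there.

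Tgfb2, the ligand linked to the transition in the developing heart, had 52.3, 47.2, 62.9, 37.5 and 48.1 CPM in hypoxia KO, against 109, 124, 107 and 119 CPM in hypoxia flox. In normoxia KO it had 65.6, 57.9, 46.9, 54.9 and 48.8 CPM, against 157, 163, 139 and 106 CPM in normoxia flox. The highest KO library, at 65.6 CPM, was below the lowest flox library, at 106 CPM. Tgfb2 fell, with changes of -1.21 ± 0.14 in hypoxia (adjusted p = 2.8e-05, edgeR quasi-likelihood) and -1.36 ± 0.14 in normoxia (adjusted p = 6.8e-06), to 0.432 and 0.389 of the flox level. Both calls held with the replicate block over the same-numbered pairs alone (-1.28, adjusted p = 0.00407, and -1.36, adjusted p = 0.0129, edgeR), though equal numbers were taken as pairs in normoxia only. The smooth muscle markers fell with it, as given beside S100a6. With their mean as a covariate the change of Tgfb2 was -0.92 in hypoxia (adjusted p = 0.0983) and -0.93 in normoxia (adjusted p = 0.316).

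Other genes of the TGF-beta pathway moved in both directions. Of 18 genes for ligand latency, receptors and SMADs, 6 were higher and 3 lower in hypoxia KO, and 3 were higher and 4 lower in normoxia KO. Smad3, which carries the signal of TGF-beta receptors, averaged 160 CPM in hypoxia KO and 95.2 CPM in hypoxia flox, a rise of 0.75 ± 0.08 (adjusted p = 7.8e-06, edgeR). Smad6, an inhibitor of BMP signals, averaged 26.6 CPM in hypoxia KO and 51.7 CPM in hypoxia flox, a change of -0.96 ± 0.14 (adjusted p = 1.7e-04). Of 11 target genes of TGF-beta and BMP, 5 were higher in hypoxia KO, 4 in normoxia KO and none lower. Pmepa1, a feedback inhibitor induced by TGF-beta, averaged 234 CPM in hypoxia KO and 99.1 CPM in hypoxia flox (1.24 ± 0.08, adjusted p = 1.9e-07), and 187 CPM in normoxia KO against 82.2 CPM in normoxia flox (1.19 ± 0.08, adjusted p = 1.0e-07). Tgfbi, a secreted matrix protein named for its induction by TGF-beta, rose by 2.92 ± 0.44 in hypoxia (adjusted p = 2.4e-04). The BMP targets Id1 and Id3 gave -0.08 ± 0.37 and -0.71 ± 0.26 in hypoxia without passing (adjusted p = 0.919 and 0.0582); both were picked from the list after their values were seen.

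Snai1 encodes Snail, a zinc finger repressor of cadherin genes that is induced within hours of a stimulus. It had 3.72, 15.5, 14.1, 12.7 and 11.7 CPM in hypoxia KO and 12.3, 9.81, 1.09 and 1.08 CPM in hypoxia flox. In normoxia it had 19.8, 17.8, 5.09, 20.7 and 8.02 CPM in KO and 12.0, 8.20, 1.78 and 3.30 CPM in flox. Every group held both high and low libraries, and the genotypes overlapped in both conditions. The change missed the threshold in hypoxia (0.91 ± 0.72, interval -0.52 to 2.35, adjusted p = 0.403, edgeR quasi-likelihood) and in normoxia (1.19 ± 0.72, interval -0.25 to 2.62, adjusted p = 0.305).

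Within each group, Snai1 was high where the immediate early genes were high. These 9 genes, among them Fos and Junb, respond within minutes to many stimuli. Fos had 475, 4676, 5015, 4643 and 4308 CPM in hypoxia KO, and 3088, 1010.0, 250 and 221 CPM in hypoxia flox. It had 5552, 5734, 570, 5442 and 762 CPM in normoxia KO, and 4749, 1326, 292 and 752 CPM in normoxia flox. The single low hypoxia KO library, the pair of low hypoxia flox libraries and the pair of low normoxia KO libraries were the same for Fos and Snai1. The summed level of the 9 genes lay between 3410 and 30063 CPM in hypoxia KO, between 1965 and 20149 CPM in hypoxia flox, between 3613 and 31955 CPM in normoxia KO and between 2010 and 26232 CPM in normoxia flox. With their mean as a covariate the SE of the Snai1 change fell to 0.28 in hypoxia and 0.26 in normoxia, and the changes were -0.07 (adjusted p = 0.882) and 0.60 (adjusted p = 0.119).

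Pericyte markers also followed Snai1. Their sum was 1312, 2271, 1652, 1399 and 2249 CPM in hypoxia KO, against 986, 1125, 371 and 223 CPM in hypoxia flox, and 1216, 1373, 781, 1421 and 1134 CPM in normoxia KO, against 983, 1372, 406 and 443 CPM in normoxia flox. In both KO groups the library with the lowest sum also had the lowest Snai1, and in both flox groups the same pair of libraries was low for the sum and for Snai1. The sums did not overlap between the genotypes in hypoxia, where 6 of 10 pericyte markers were higher in KO and none lower (edgeR). With the mean log2 CPM of these markers as a covariate, chosen after seeing the data, the direction of the hypoxia Snai1 change turned and it passed (-2.05 ± 0.53, adjusted p = 0.0253, edgeR). In normoxia it was -0.74 ± 0.43 (adjusted p = 0.280). That mean was 5.72 to 6.69 in hypoxia KO and 2.93 to 5.21 in hypoxia flox. Genotype and pericyte signal thus cannot be told apart in hypoxia, and no direction of Snai1 is drawn from that fit.

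Snai2, which encodes the related repressor Slug, had 9.48, 17.3, 14.7, 8.48 and 13.2 CPM in hypoxia KO and 18.4, 10.5, 11.7 and 7.84 CPM in hypoxia flox. In normoxia KO it had 14.5, 13.7, 4.12, 13.4 and 8.59 CPM, and in normoxia flox 20.2, 12.9, 10.5 and 8.89 CPM. The groups overlapped almost fully. The change was 0.06 ± 0.35 in hypoxia (interval -0.64 to 0.75, adjusted p = 0.934, edgeR quasi-likelihood) and -0.27 ± 0.35 in normoxia (interval -0.96 to 0.42, adjusted p = 0.655). With the pericyte covariate, which separates the genotypes in hypoxia, it was -1.08 ± 0.47 in hypoxia (adjusted p = 0.152) and -0.93 ± 0.36 in normoxia (adjusted p = 0.0915). Among 6 tested transcription factors of the same transition, 2 were higher in hypoxia KO and none passed in normoxia (edgeR). They were Zeb1, a repressor of cadherin genes (204 CPM in hypoxia KO and 176 CPM in hypoxia flox, change 0.22 ± 0.07, adjusted p = 0.0410), and Prrx1, a homeobox factor of mesenchyme (8.09 and 4.59 CPM, change 0.81 ± 0.25, adjusted p = 0.0291).

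**Figure D5:**
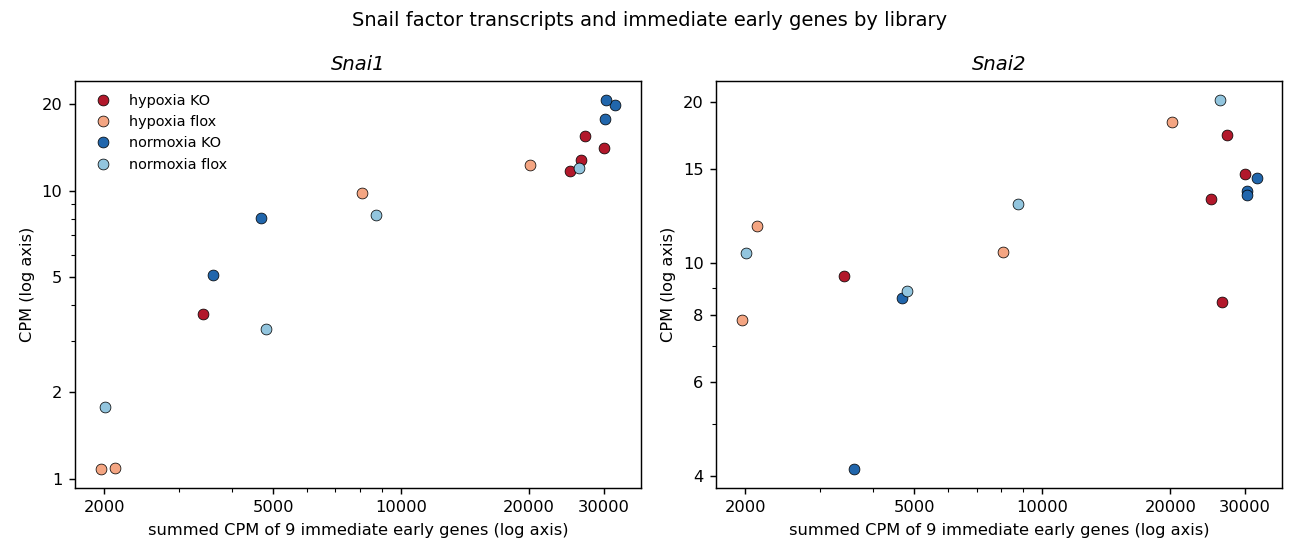
CPM of Snai1 (left) and Snai2 (right) against the summed CPM of 9 immediate early genes, one point per library, log axes. The 3 libraries with the lowest sums have Snai1 at 1.08 to 1.78 CPM, and the 3 with the highest sums have 17.8 to 20.7 CPM; Snai2 follows the sum less closely, with hypoxia KO 4 low at 8.48 CPM.

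Oxygen by itself changed no member past the threshold over all libraries with edgeR, and Tgfb1 in flox was close to it. Hypoxia minus normoxia, 0 of 9 members passed in KO by edgeR's quasi-likelihood test, where 1.48% of all tested genes passed, and 3 members had an unadjusted p under 0.05, as did 14.2% of all tested genes. In flox 0 of 9 passed, where 2.81% of all tested genes passed, and 2 members had an unadjusted p under 0.05, as did 17.8% of all tested genes. DESeq2 called 0 members in KO and 2 in flox, Tgfb1 (adjusted p = 0.0213) and Vim (adjusted p = 0.0432). In KO, S100a6 stood higher in every hypoxia library than in any normoxia library (1.02 ± 0.40, interval 0.22 to 1.82, adjusted p = 0.262), and so did Tgfb1 (0.25 ± 0.10, interval 0.06 to 0.45, adjusted p = 0.251). The S100a6 change was 0.30 ± 0.23 when hypoxia KO 4 was left out (adjusted p = 0.654, edgeR). Within flox, Tgfb1 averaged 122 ± 12.6 CPM in hypoxia and 91.7 ± 16.2 CPM in normoxia (SD, n = 4 each), a change of 0.41 ± 0.11 that just missed the threshold (adjusted p = 0.0559, edgeR). It passed in 7 of 26 alternatives, among them those without normoxia flox 2 (0.51, adjusted p = 0.0161) and without hypoxia flox 5 (0.47, adjusted p = 0.0477). Vim in flox averaged 1124 ± 59.4 CPM in hypoxia and 900.5 ± 116 CPM in normoxia without overlap (0.32 ± 0.10, interval 0.12 to 0.52, adjusted p = 0.110). Libraries did not overlap for 2 of 9 members in KO and 1 of 9 in flox, where this held for 3.83% and 8.5% of all tested genes.

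Cdh2 was the exception when the pair of neuronal libraries was left out. Its KO libraries then averaged 104 ± 16.7 CPM in hypoxia (SD, n = 5) and 76.6 ± 4.51 CPM in normoxia (SD, n = 4), a rise of 0.45 ± 0.10 (adjusted p = 0.0344, edgeR quasi-likelihood). In flox it averaged 87.3 ± 7.56 CPM in hypoxia (SD, n = 4) and 47.1 ± 0.834 CPM in normoxia (SD, n = 3), a rise of 0.88 ± 0.12 (adjusted p = 2.9e-04). The 5 markers of dividing cells, whose sums stand beside Postn, were all higher in hypoxia flox than in normoxia flox (median change 4.26), and their part in the Cdh2 level was not tested. The interaction, which asks whether the genotype difference changed with oxygen, passed for 0 of 9 members with edgeR and with DESeq2, where 0.445% of all tested genes passed with edgeR. Among all tested genes 5.48% had an unadjusted p under 0.05 there, and 1 member did, S100a6 (1.44 ± 0.65, adjusted p = 0.877). The S100a6 interaction was 0.73 ± 0.36 when hypoxia KO 4 was left out (adjusted p = 0.998, edgeR). Cd44 gave 1.67 ± 0.83 (interval 0.01 to 3.32, adjusted p = 0.938), so the passing of Cd44 in hypoxia and not in normoxia is not shown to be a difference between the conditions.

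Other mesenchymal genes moved in both directions with genotype. Of 18, 6 were higher and 2 lower in hypoxia KO, and 5 were higher and 3 lower in normoxia KO. Fn1, the matrix protein fibronectin, averaged 12073 CPM in hypoxia KO and 6567 CPM in hypoxia flox, and 11758 CPM in normoxia KO and 4769 CPM in normoxia flox (normoxia change 1.30 ± 0.13, adjusted p = 4.4e-06, edgeR). Col3a1, a fibrillar collagen, rose by 2.83 ± 0.29 in hypoxia (adjusted p = 6.8e-06) and 2.76 ± 0.28 in normoxia (adjusted p = 5.5e-06). Lgals1, the lectin galectin-1, rose by 2.70 ± 0.32 in hypoxia (adjusted p = 2.6e-05). Acta2, the smooth muscle actin often read as a mark of the transition, went the other way, with 50.9 CPM in hypoxia KO and 159 CPM in hypoxia flox (-1.65 ± 0.23, adjusted p = 1.1e-04), and 45.2 CPM in normoxia KO and 229 CPM in normoxia flox (-2.34 ± 0.23, adjusted p = 3.0e-06). It is also among the 8 smooth muscle markers, of which 6 were lower in hypoxia KO, 7 in normoxia KO and none higher. Of 10 genes of endothelial identity, 1 was higher and 1 lower in hypoxia KO, near the 22.3% of all tested genes that passed there. They were Pecam1 (0.38 ± 0.09, adjusted p = 0.00698) and the tight junction gene Ocln (-0.40 ± 0.13, adjusted p = 0.0337). In normoxia, where 16.6% of all tested genes passed, 3 were higher and none lower. They were Vwf, von Willebrand factor (1.18 ± 0.24, adjusted p = 0.00302), Pecam1 (0.33 ± 0.09, adjusted p = 0.0167) and Nos3, the endothelial nitric oxide synthase (0.40 ± 0.12, adjusted p = 0.0339). Of the 7 endothelial markers, most of them also in that list, 1 was higher and 2 lower in normoxia KO (edgeR). In hypoxia KO 1 was higher and none lower. The 2 lower, outside that list, were Flt1 and Slco1c1. Flt1 had 3056 to 4444 CPM in normoxia KO and 3878.5 to 6524 CPM in normoxia flox. Slco1c1 had 1841 to 2666 CPM and 2568 to 3448 CPM.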

How the data were processed

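The table of read counts that the authors deposited covers 57010 Ensembl genes and 18 stranded mRNA libraries of 17.9 M to 31.2 M counts each, with no normalization. Per the submitters' processing notes, HISAT2 and edgeR were used with GRCm39; versions, the counter, the annotation and the strand setting are not given in the sources used here, so overlapping and antisense genes are uncertain. The RPKM values, deposited by the authors, are scaled by library total and gene length, with 1 decimal, and served here for levels between genes and for 1 alternative. Symbols covered 91.3% of the identifiers, and the rest held 0.723% of counts.

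Counts were tested in R 4.3.3 with edgeR 4.0.16: filterByExpr (17531 genes), TMM, 1 model of the 4 groups, the robust quasi-likelihood F test, and Benjamini-Hochberg adjustment over all tested genes within each of 5 comparisons (threshold 0.05). Standard errors were derived from each change and its F value. The procedure was tested on simulated data. Members, lists and alternatives were chosen with earlier results of these data known. The genes named are the 10 members, Pdcd10, up to 3 passing genes with the smallest adjusted p per related list and comparison (a selection is printed), and for each tested member the 3 genes with the highest Pearson r, of which 1 is not reported here; Cdh5, Itgb2, Fos, Junb, S100a2, S100a3 and S100a5 were set beside members after their values were seen, as were Id1 and Id3.

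Alternatives were DESeq2 1.42.0, RLE scaling, no or a stricter filter (1 CPM in 4 libraries), the legacy quasi-likelihood fit, the 2 groups compared alone, limma 3.58.1 (trend) on RPKM with 0.1 added, a replicate block, marker scores and the sex signal as covariates, and leaving out libraries. Chosen after seeing the data were the smooth muscle and pericyte covariates and leaving out hypoxia KO 4, normoxia KO 4 and normoxia flox 4 together. Same-numbered normoxia KO and flox libraries deviated together (pairs 1, 2 and 4: r = 0.579, 0.294 and 0.847 across genes, which are not independent replicates). Unlike-numbered libraries there gave -0.674 to 0.707, and KO 2 was closer to flox 1 (0.550) than to flox 2. By the rule that every pair exceed 0.1, numbers were taken as pairs there and in no other comparison, as a hint from the data, since the labels do not say what a number marks.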

Additional observations from a re-analysis of the deposited data

Results flagged for a closer look

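Each of the 9 tested genes was examined in each of the 4 groups, 36 sets of libraries in all, for a highest or lowest library that lies far from the rest by Dixon's test. Chance flags about 1 in 20 groups, and 4 libraries were flagged. S100a6 had 127 CPM in hypoxia KO 4, against 28.3 to 34.2 CPM in the other hypoxia KO libraries. That library also held S100a8 at 29.2 CPM, S100a9 at 49.4 CPM, Lyz2 at 69.2 CPM, Ptprc at 49.6 CPM and the fibroblast gene Dcn at 42.2 CPM, and their part in the S100a6 level was not tested. Cdh2 had 106 CPM in normoxia KO 4, against 70.3 to 80.6 CPM in the other normoxia KO libraries, and 120.1 CPM in normoxia flox 4, against 46.2 to 47.9 CPM in the other normoxia flox libraries. These are the libraries with Syt1 at 471 CPM (KO 4) and 838 CPM (flox 4). They also had the highest sums of astrocyte markers, 524 CPM (KO 4) and 924 CPM (flox 4). The part of neuronal, astrocyte or other brain cell RNA in the Cdh2 level was not tested beyond leaving these libraries out. Tgfb1 had 159.6 CPM in normoxia KO 6, against 138 to 143 CPM in the other normoxia KO libraries.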

How the results depend on the processing

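Of 1260 alternative values of single members, 1211 kept their direction or stayed unpassed, 20 lost the threshold, 28 gained it and 1 reversed. Values past the threshold in no fit count as unchanged, even where their sign differs. The reversed value was the hypoxia genotype change of Snai1, -2.05 (adjusted p = 0.0253, edgeR) with the pericyte covariate, which separates the genotypes in hypoxia. The hypoxia genotype comparison called 5 members, against 3 with the neutrophil and macrophage covariate, 1 with the smooth muscle covariate, and 5 to 6 without single libraries. The normoxia genotype comparison also called 5. With the replicate block it called 3 over all groups and 2 over the same-numbered pairs alone, 1 with the smooth muscle covariate, and 5 to 7 when single libraries were left out. The 1 member under the smooth muscle covariate was Tgfb1 in both. That covariate separates the genotypes completely in both conditions. The neutrophil and macrophage, fibroblast and pericyte covariates do so in hypoxia only, where their fits cannot tell genotype and marker signal apart. Hypoxia minus normoxia called 0 members in KO, against 1 each without the 2 neuronal libraries, without the 3 libraries with both Xist and Ddx3y, and without the neuronal libraries and hypoxia KO 4. Leaving out single libraries gave 0 to 0 in KO. In flox it called 0, against 2 with DESeq2, 2 with limma on RPKM, 2 without the neuronal libraries and hypoxia KO 4, 1 each with the immediate early, smooth muscle or pericyte covariate, 1 each without the 2 neuronal libraries or these 3, and 0 to 1 without single libraries. The interaction called 0 members in all 34 alternatives. Except where a covariate or fewer samples make the change, the cause was not tested. Same-numbered libraries were taken as pairs in normoxia KO and flox only, and the block changed no call other than those of Postn, Vim and Tgfb1 there and Cdh2 in hypoxia. S100a4, with 4 counts in all, was not tested.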

Other observations

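For each tested member the 3 genes most like it were found by Pearson r of log2 CPM over the 18 libraries, among 13180 candidates. The libraries share groups and composition, so a high r describes the pattern over these libraries and carries no test. The genes most like S100a6 were Gpr1 (r = 0.98), Ica1l (r = 0.97) and Rasa4 (r = 0.97), and those most like Postn were Gpc6 (r = 0.96), Sh3kbp1 (r = 0.95) and Col6a2 (r = 0.95). Of the genes most like Tgfb1, Vasp (r = 0.96), an actin regulator, and Smarca4 (r = 0.94) are given. Tgfb2 was most like Mertk (r = 0.98), a receptor for the uptake of dead cells, Syt15 (r = 0.98) and Tada2a (r = 0.98). Vim was most like Msn (r = 0.94), the actin linker moesin, Gm7367 (r = 0.94) and Arpc3 (r = 0.94), a subunit of the actin-branching complex.

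Snai1 was most like Ier3 (r = 0.97), Ppp1r15a (r = 0.97) and Junb (r = 0.96), all early response genes. Snai2 was most like Cep85l, Fxr1 and Ppp1r12a (r = 0.94 each). Cdh2 was most like Chst2 (r = 0.93), Shc3 (r = 0.91) and Kit (r = 0.91). Cd44 was most like Arhgap30 (r = 0.96), Bin2 (r = 0.95) and the leukocyte integrin Itgb2 (r = 0.95).

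Cdh1, the epithelial cadherin, differed with oxygen within KO, averaging 2.47 CPM in hypoxia KO and 15.1 CPM in normoxia KO without overlap (change -2.61 ± 0.48, adjusted p = 0.0149, edgeR). Hmmr, a second hyaluronan receptor that is also a spindle protein of dividing cells, averaged 9.02 CPM in hypoxia flox and 0.435 CPM in normoxia flox (4.34 ± 0.36, adjusted p = 4.9e-06). Its genotype difference changed with oxygen (interaction -3.47 ± 0.44, adjusted p = 0.00376). Col4a1, a basement membrane collagen and TGF-beta target, rose with hypoxia in KO (0.74 ± 0.09, adjusted p = 0.00121) and in flox (0.88 ± 0.10, adjusted p = 3.9e-05).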
